A study of Homo sapiens with 12 samples.

Results

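Tryptophan that is not built into protein is largely broken down through the kynurenine pathway. IDO1 and TDO2 open the indole ring of tryptophan, AFMID releases kynurenine, KYNU cleaves kynurenine and 3-hydroxykynurenine, and QPRT turns quinolinic acid, a later product, into a precursor of NAD. IL4I1 is a secreted oxidase that breaks down tryptophan by another route, and WARS loads tryptophan onto its tRNA in the cytosol and is, like IDO1, a classical target of interferon-γ. These 7 genes were chosen by name, with earlier results of these data known, and each was 1 row among the 58735 genes of the expression table.

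RNA was sequenced from NCM460 cells, an established line of human colonic epithelial cells, in 12 libraries of 4 groups with 3 libraries each. Wild-type cells were kept in medium, given TNF-α, or given TNF-α+Bufotenidine, and the remaining group carried the HTRA2 knockdown and received TNF-α. Bufotenidine is the compound 5-OH-TMT, a quaternary ammonium derivative of bufotenine made by chemical synthesis, and HTRA2 is a mitochondrial serine protease. The comparisons ask how the inflammatory cytokine changes the cells, and how the compound and the loss of its proposed target change cells that receive the cytokine. The knockdown was made by siRNA, and the study describes 3 siRNAs against HTRA2 without saying which one gave the sequenced libraries. The study names a control siRNA, but the labels of the TNF-α libraries do not, and if those cells were not transfected, the effect of HTRA2 loss and that of transfection cannot be told apart. The dose and the duration of TNF-α are not given in the sources used here. Nothing states that the 3 libraries of a group came from separate cultures, so p-values measure only the spread between these libraries, which may be technical.

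The libraries held between 31008429 and 37624399 reads on genes. HTRA2 was present at 14.0, 17.2 and 13.3 FPKM in medium, 15.4, 14.0 and 14.2 with TNF-α, 15.4, 15.5 and 14.8 with Bufotenidine, and 7.44, 7.18 and 7.22 in the knockdown. It fell by 0.98 ± 0.09 (SE) on the log2 scale in the knockdown against TNF-α (limma, Benjamini-Hochberg adjusted p = 2.77e-05), so that about 0.501 of the mean FPKM remained. The summed FPKM of 8 epithelial markers was between 2118 and 2689 in every library, most of it KRT8 and KRT18. Of the 5 tested, 2 were higher in the knockdown than with TNF-α at an adjusted p under 0.05, beside 9.35% of all genes. CDH1 was at 81.1 to 88.4 FPKM in the knockdown and 59.9 to 67.7 FPKM with TNF-α. The other 3, intestinal markers (VIL1, CDX2 and CDH17), had at most 3 reads in any library. Knockdown library 2 stood apart from the others of its group. Its share of reads on mitochondrial genes was 2.95%, against 3.69% to 4.68% elsewhere. The chi-squared of its reads against each of the other knockdown libraries, divided by its degrees of freedom, was 35.0 and 45.4, against 7.35 between those.

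Interferon-responsive genes often carry short DNA elements close to their start. The GAS element (TTCNNNGAA) and the ISRE (searched as GAAANNGAA) were therefore looked for on both strands in the 250 bases before each RefSeq start (GRCh38.p14), which were at hand for 6 of the 7 genes, all but IDO1. WARS has 2 such starts. The downstream start held a GAS match 142 bases and an ISRE match 55 bases before it, and KYNU held a GAS match 34 bases before its start. The 30 bases around each match are shown because WARS and KYNU were among the genes called in the knockdown, with the match in capitals.

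WARS, GAS (chr14:100375470-100375499, minus strand): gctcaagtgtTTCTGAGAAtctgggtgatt

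WARS, ISRE (chr14:100375383-100375412, minus strand): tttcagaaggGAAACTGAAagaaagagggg

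KYNU, GAS (chr2:142877620-142877649, plus strand): gtctgagcagTTCTTTGAAtttctcaccct

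Each stretch also lies within an annotated exon of its gene in GENCODE 29, for transcripts that begin further upstream. Of 35116 promoter windows of the same length, 6.57% held a GAS match and 6.88% an ISRE match. TDO2, AFMID, IL4I1, the upstream start of WARS and both starts of QPRT held neither. None of the 6 genes searched had a match to the NF-κB motif, found in 5.21% of the windows. Nor did they hold the amino acid response element (TGATGNAAT), found in 0.888%. The dioxin response element (GCGTG), bound by the aryl hydrocarbon receptor, occurred once each before the upstream WARS start, AFMID and IL4I1, and in 32.2% of all windows. A match of letters is a description and does not show that a factor binds there.

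The 7 genes spanned a wide range of levels, given as FPKM, which counts fragments relative to gene length and library size. WARS (ENSG00000140105, chr14:100333788-100376805, minus strand, hg38) was the highest, with a mean of 40.3 FPKM over the 12 libraries. QPRT (ENSG00000103485, chr16:29679008-29698699, plus strand) followed at 20.7 FPKM. AFMID (ENSG00000183077, chr17:78187317-78207701, plus strand) and KYNU (ENSG00000115919, chr2:142877498-143055832, plus strand) lay at 4.30 and 3.85 FPKM. The length used for KYNU was 17600 bases, the sum of the exons of all its annotated transcripts, and its FPKM is relative to that length.

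The remaining genes were close to the limit of detection. IL4I1 (ENSG00000104951, chr19:49889654-49929539, minus strand) had a mean of 0.101 FPKM, just over the minimum for the main test and carried there by its knockdown libraries, IDO1 (ENSG00000131203, chr8:39902275-39928444, plus strand) 0.0675 FPKM and TDO2 (ENSG00000151790, chr4:155854738-155920406, plus strand) 0.0159 FPKM. IDO1 and TDO2 did not reach that minimum of 0.1 FPKM and are described by their reads, which were recovered from the FPKM. IDO2, the paralogue of IDO1, had 0 reads in every library, at a floor of 3 reads per library. Thus IDO1, IDO2 and TDO2, which start the pathway, were nearly silent, while AFMID, KYNU and QPRT each had at least 489 reads in every library.

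**Figure D1:**
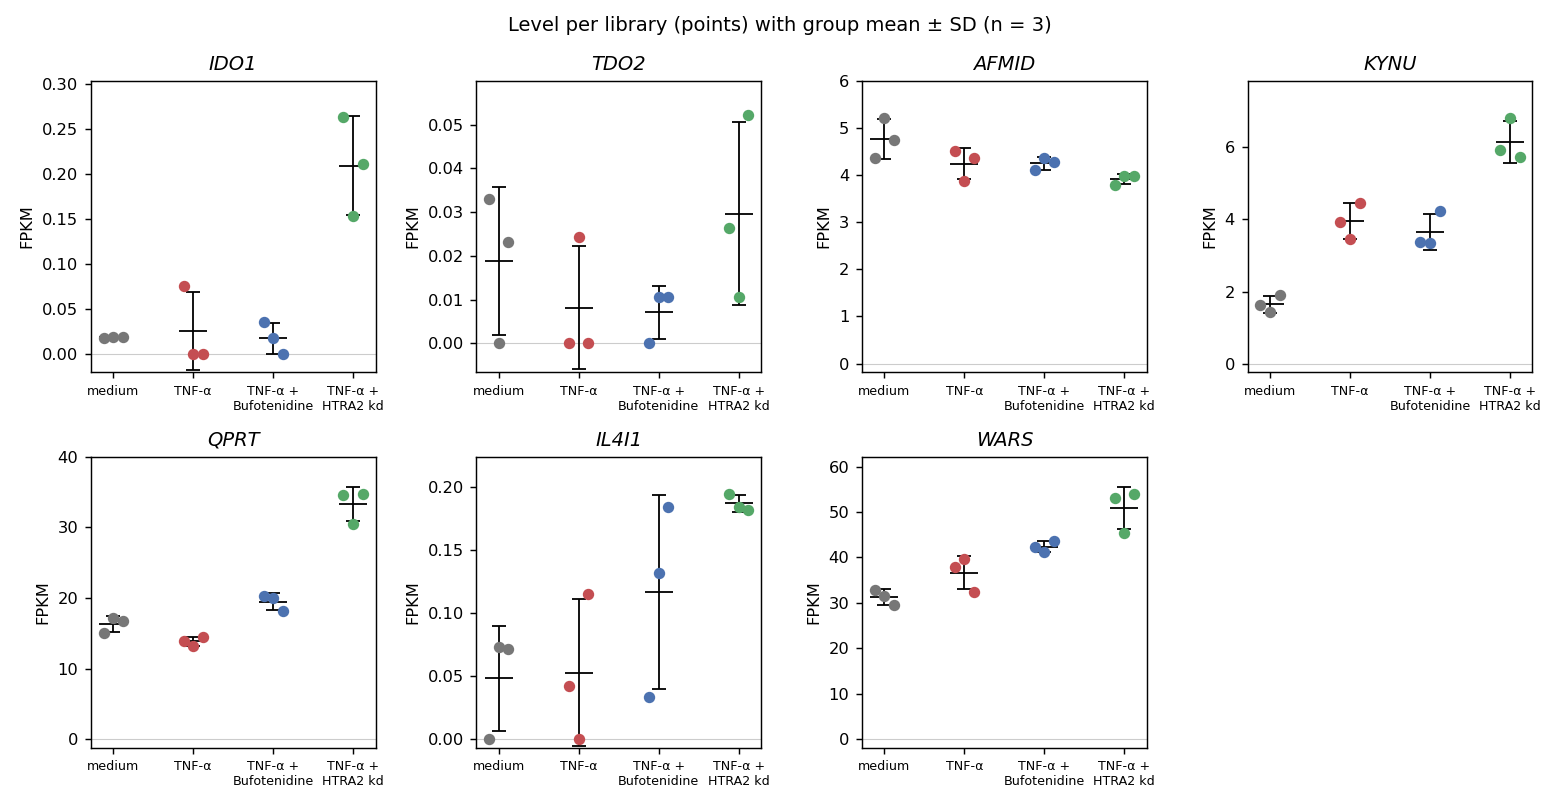
Level of each gene in FPKM (vertical axes, a separate scale per gene) in the 4 groups; points are single libraries, and horizontal bars with whiskers are the mean ± SD (n = 3 libraries). KYNU separates medium from every group with TNF-α, QPRT and WARS are highest in the knockdown, and IDO1 is visible mainly in the knockdown, where it has 18 to 31 reads.

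TNF-α alone raised KYNU and no other of the 5 genes tested. KYNU was at 1.62, 1.42 and 1.90 FPKM in medium and at 3.92, 3.47 and 4.46 FPKM with TNF-α. Every TNF-α library lay above every medium library. The log2 fold change was 1.22 ± 0.14 (SE, limma, Benjamini-Hochberg adjusted p = 1.93e-04), a fold of 2.32. This 1 gene of 5 stood against 4.1% of all 18079 genes tested that were called at an adjusted p under 0.05. KYNU also met the threshold of the study for a differentially expressed gene, a change of 2 times or more at an unadjusted p up to 0.05, which 2.73% of all genes met.

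WARS was at 32.9, 31.4 and 29.5 FPKM in medium and at 37.9, 39.6 and 32.5 FPKM with TNF-α. The groups overlapped slightly, and the log2 fold change of 0.23 ± 0.09 (SE) did not pass adjustment (limma, adjusted p = 0.225). QPRT was at 15.0, 17.2 and 16.7 FPKM in medium and at 13.9, 13.2 and 14.5 FPKM with TNF-α. Its groups did not overlap, but its log2 fold change of -0.23 ± 0.08 (SE) was not called either (limma, adjusted p = 0.146). AFMID, at 4.36, 5.22 and 4.74 FPKM in medium and 4.51, 3.88 and 4.36 FPKM with TNF-α, had overlapping groups and an adjusted p of 0.435.

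The low genes showed no detectable response to TNF-α. IL4I1 had 0, 6 and 6 reads in medium and 4, 0 and 11 with TNF-α. IDO1 had 2 reads in each medium library and 9, 0 and 0 with TNF-α, so that 1 TNF-α library held all of its reads in that group. TDO2 had 6, 0 and 4 reads in medium and 0, 4 and 0 with TNF-α. At this depth a difference could not be shown for any of these 3 genes, and the sign of the fitted change of IDO1 and IL4I1 depended on the setting.

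Bufotenidine added to TNF-α moved none of the 5 genes past an adjusted p of 0.05, where 7 of all genes tested, or 0.0387%, were called. Of the 5, 2 had an unadjusted p under 0.05 (QPRT and WARS), as did 20.1% of all genes. QPRT came closest, at 20.3, 20.05 and 18.1 FPKM with the compound, all above the 13.2 to 14.5 FPKM with TNF-α alone. The log2 fold change was 0.49 ± 0.08 (SE, unadjusted p = 4.49e-05, limma, adjusted p = 0.0531). It was called when only genes with a mean of at least 1 FPKM were tested (adjusted p = 0.0278), when only the libraries of both groups were fitted (adjusted p = 0.0414), and in a fit of the recovered reads with voom (adjusted p = 0.0235), settings that called 127 of 11185, 911 of 18079 and 236 of 18079 genes. Over all alternatives its adjusted p lay between 0.0235 and 0.230.

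WARS was at 42.4, 41.1 and 43.6 FPKM with Bufotenidine. These values lay above every TNF-α library, but the log2 fold change of 0.21 ± 0.09 (SE) was not called (limma, adjusted p = 0.209). KYNU, at 3.38, 3.35 and 4.23 FPKM, overlapped the TNF-α libraries, with a log2 fold change of -0.11 and a 95% interval from -0.41 to 0.19. AFMID stayed at 4.11, 4.36 and 4.28 FPKM, with an interval from -0.19 to 0.19 around a change of 0.00. None of the 5 genes reached the fold threshold of the study, which 1.5% of all genes met.

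The reads of the low genes with Bufotenidine were scattered over the libraries. IL4I1 had 3, 12 and 17 reads, IDO1 4, 2 and 0, and TDO2 0, 2 and 2. All 3 genes overlapped their TNF-α libraries.

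Against medium, cells with TNF-α and Bufotenidine had higher WARS and KYNU, in a comparison where 6.55% of all genes were called. The log2 fold change was 0.44 ± 0.09 (SE, limma, adjusted p = 0.00965) for WARS and 1.11 ± 0.14 (SE, adjusted p = 3.02e-04) for KYNU. That WARS passed here and not with TNF-α alone is not a difference between those groups, since the direct comparison of them was not called.

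HTRA2 knockdown under TNF-α raised QPRT, KYNU and WARS above TNF-α alone, 3 of the 5 genes tested, while 17.4% of all genes were called. The 5 were chosen with earlier results of these data known, so this count is not a test of the set. They include IL4I1, which passed the filter only through its knockdown libraries. Among the 3 called genes, QPRT changed most. It was at 34.5, 30.5 and 34.8 FPKM in the knockdown, more than any library of the other groups. The log2 fold change against TNF-α was 1.26 ± 0.08 (SE, limma, adjusted p = 4.26e-06), a fold of 2.39. QPRT was the 1 gene of the 5 that met the fold threshold of the study, against 4.23% of all genes.

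KYNU was at 5.93, 6.82 and 5.72 FPKM in the knockdown, above every library of the other groups. The log2 fold change of KYNU against TNF-α was 0.63 ± 0.14 (SE, limma, adjusted p = 0.00739). Against medium its change was 1.85 ± 0.14 (SE, limma, adjusted p = 1.4e-06). There was no knockdown group without TNF-α, so an effect of the knockdown without the cytokine was not tested. WARS was at 53.1, 45.4 and 54.0 FPKM, again without overlap with any other group. Its log2 fold change against TNF-α was 0.47 ± 0.09 (SE, limma, adjusted p = 0.0031), a fold of 1.39. The lowest WARS and QPRT values of the group, and the highest KYNU value (6.82 FPKM), came from knockdown library 2, which stood apart from its group. QPRT, KYNU and WARS were also called without it.

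AFMID did not follow the other enzymes. It was at 3.80, 3.99 and 3.98 FPKM in the knockdown and overlapped the TNF-α libraries (log2 fold change -0.11 ± 0.09, SE, limma, adjusted p = 0.433). Against medium it fell by 0.27 on the log2 scale (limma, adjusted p = 0.0387), in a comparison where 24.3% of all genes were called.

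IDO1 had 31, 18 and 25 reads in the knockdown, against 9, 0 and 0 with TNF-α, 4, 2 and 0 with Bufotenidine and 2, 2 and 2 in medium. Each knockdown library therefore held more IDO1 reads than any other library. Mean FPKM was 8.33 times that with TNF-α, and without the TNF-α library that held all 9 reads it was at least 7.71-fold higher, against the floor of 3 reads per library. Every medium library lay under that floor, so only a bound is given against medium, where the knockdown mean was at least 7.52-fold higher.

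In a fit without a filter on low values, over 31951 genes, IDO1 rose in the knockdown against TNF-α with a log2 fold change of 1.34 ± 0.24 (SE, limma, adjusted p = 0.0066), and 8.23% of the genes were called there. It also rose against medium (adjusted p = 0.00384, with 11.9% of the genes called). The call against TNF-α was lost when only the libraries of those groups were fitted (adjusted p = 0.0899). Fold changes of low genes on the log2(FPKM + 0.1) scale understate the change, and even the highest IDO1 level, 0.263 FPKM, was small beside the 54.0 FPKM of WARS in the knockdown.

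IL4I1 had 18, 17 and 17 reads in the knockdown, more than any TNF-α library. The log2 fold change of 0.98 ± 0.43 (SE) was not called (limma, adjusted p = 0.141). It is given as a description, because the knockdown libraries brought IL4I1 into the test. TDO2, with 5, 2 and 10 reads, overlapped all other groups. IL4I1 shares 336 of its exonic bases (13.1%) with NUP62 on the same strand, and NUP62 was at a mean of 9.92 to 12.5 FPKM in the 4 groups, so how the counting assigned reads from the shared bases bears on so low a count.

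**Figure D2:**
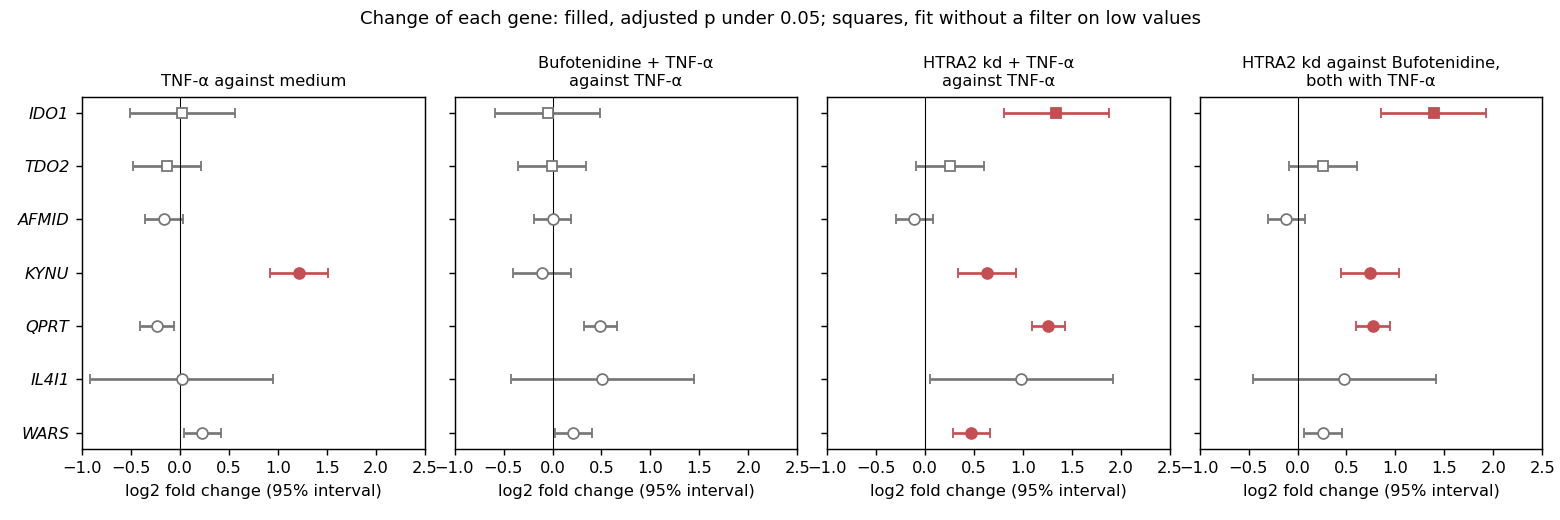
Log2 fold change on the log2(FPKM + 0.1) scale (horizontal axes) of each gene in 4 comparisons, with 95% intervals from the limma fit of 12 libraries; filled symbols passed an adjusted p of 0.05, and squares mark IDO1 and TDO2, which come from the fit without a filter on low values. KYNU is the filled symbol for TNF-α against medium, none is filled for Bufotenidine, and IDO1, KYNU, QPRT and WARS are filled for the knockdown against TNF-α.

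The knockdown and Bufotenidine groups, both with TNF-α, were compared directly, and 15.3% of all genes were called. QPRT (log2 fold change 0.77 ± 0.08, SE, limma, adjusted p = 1.3e-04) and KYNU (0.74 ± 0.14, SE, adjusted p = 0.00436) were higher in the knockdown, 2 of the 5 genes tested. WARS was higher in every knockdown library but was not called (0.26 ± 0.09, SE, limma, adjusted p = 0.066), and without knockdown library 2 it was (0.34, adjusted p = 0.0276). None of the 5 met the fold threshold of the study, which 3.19% of all genes met. In the fit without a filter, where 6.4% of the genes were called, IDO1 was higher in the knockdown (1.39 ± 0.24, SE, limma, adjusted p = 0.0081).

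The order of the groups thus differed between the genes. KYNU was highest in the knockdown and lowest in medium, and between these the TNF-α and Bufotenidine groups were not called different. QPRT was highest in the knockdown, while the steps between its 3 lower groups (Bufotenidine, medium and TNF-α, in that order) were not called. For WARS no step between neighbouring groups passed the test, although the knockdown and Bufotenidine groups both exceeded medium. In the exact two-sided permutation test, 3 libraries against 3 cannot give a p below 0.1, the value reached when the groups do not overlap. For the knockdown against TNF-α this was so for KYNU, QPRT and WARS, and the groups did not overlap for 34.0% of all genes tested. IDO1 and IL4I1 did not overlap either, but IDO1 lay under the filter and IL4I1 passed it only through its knockdown libraries.

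Genes that take part in the same reactions were examined next. Tryptophan enters cells mainly through the transporter of SLC7A5 and SLC3A2. Both were abundant, and neither was called with TNF-α or Bufotenidine. In the knockdown SLC3A2 fell by 0.26 on the log2 scale against TNF-α (limma, adjusted p = 0.0319). It was the 1 called gene of 4 tested in the uptake list, while 8.08% of all genes were called lower. SLC7A5 changed by -0.34 without passing the test (limma, adjusted p = 0.0625). Against Bufotenidine both were lower in the knockdown, with log2 fold changes of -0.77 for SLC7A5 (adjusted p = 0.00138) and -0.57 for SLC3A2 (adjusted p = 6.95e-04).

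Of 10 genes of the kynurenine branch, 8 were tested, and HAAO and ACMSD were too low. With TNF-α 1 was higher (KYNU) and 1 lower, KYAT1, a kynurenine aminotransferase (log2 fold change -0.45, limma, adjusted p = 0.0257). KMO and IL4I1 passed the filter only through their knockdown libraries, and of the other 6 genes 1 was higher in the knockdown than with TNF-α (KYNU) and 1 lower. The lower gene was GOT2, a mitochondrial aspartate aminotransferase (-0.35, limma, adjusted p = 0.0118). Over all genes tested, 3.22% were called higher and 0.885% lower with TNF-α against medium. For the knockdown against TNF-α the shares were 9.35% and 8.08%. KYNU, the gene called higher in both comparisons, is itself a member.

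KMO hydroxylates kynurenine and so makes a substrate of KYNU. It had 0, 1 and 2 reads in medium, 36, 24 and 18 with TNF-α, 41, 25 and 30 with Bufotenidine, and 83, 127 and 95 in the knockdown. The TNF-α and Bufotenidine groups overlapped and lay between medium and the knockdown. Its mean FPKM in the knockdown was 3.77 times that with TNF-α, given as a description because the knockdown libraries brought the gene into the test. For TNF-α against medium, the log2 fold change of KMO, 1.08, was not called (limma, adjusted p = 0.0677).

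NAD synthesis, where QPRT acts, had 9 of 10 listed genes tested. In the knockdown against TNF-α their median log2 fold change was 0.40, beside -0.0034 over all genes. Of the 9, 5 were called higher and 0 lower, while 9.35% of all genes were called higher and 8.08% lower. The 5 include the member QPRT, and without it 4 of 8 were higher. Next to QPRT these were NMNAT2, a late NAD-forming enzyme (0.63, limma, adjusted p = 5.91e-04), NNMT, which methylates nicotinamide (0.69, adjusted p = 0.00189), NMRK1, a nicotinamide riboside kinase (0.53, adjusted p = 0.0294), and NADSYN1, which completes the route from QPRT (0.30, adjusted p = 0.0445). NNMT consumes a precursor of NAD and does not make it. TNF-α alone raised 1 gene of this list, NAMPT, which recycles nicotinamide (0.71, adjusted p = 0.00402), and Bufotenidine none.

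Kynurenine can act on the aryl hydrocarbon receptor, AHR. Its repressor and target gene AHRR was at 1.18, 1.30 and 1.28 FPKM in the knockdown, below every TNF-α library (1.81 to 2.17 FPKM). AHRR fell by 0.63 on the log2 scale (limma, adjusted p = 0.00195), while AHR itself was not called (0.33, adjusted p = 0.271). Against Bufotenidine, AHR was higher in the knockdown (0.78, limma, adjusted p = 0.0182) and AHRR lower (-1.16, adjusted p = 8.11e-05). GPR35, another receptor proposed for a kynurenine product, was too low to test.

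**Figure D3:**
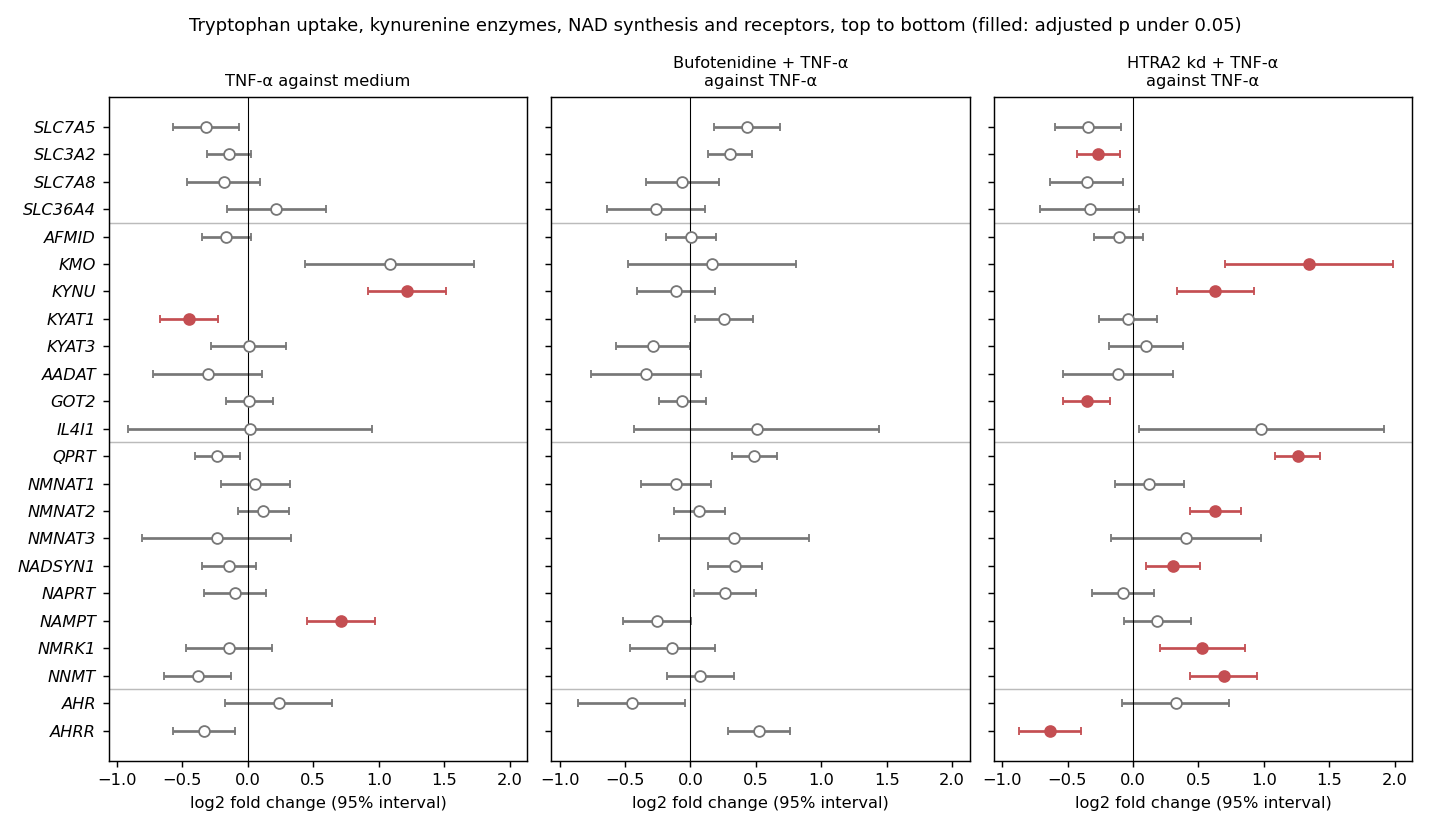
Log2 fold change with its 95% interval (horizontal axes) of the tested genes of tryptophan uptake, the kynurenine branch, NAD synthesis and kynurenine receptors, separated by grey lines from top to bottom, in 3 comparisons; filled symbols passed an adjusted p of 0.05. TNF-α against medium has 3 filled symbols (KYNU, KYAT1 and NAMPT), Bufotenidine has none, and the knockdown has QPRT and KMO farthest to the right, the latter a gene that passed the filter only through its knockdown libraries.

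WARS belongs to the 20 cytosolic aminoacyl-tRNA synthetases, enzymes that often change together when amino acids are scarce. All 20 were tested, and none was called with TNF-α or with Bufotenidine. In the knockdown WARS was the 1 synthetase that rose, and 4 fell, while 15 were not called. Over all genes tested, 9.35% were called higher and 8.08% lower in that comparison with TNF-α. Those that fell were VARS (log2 fold change -0.66, limma, adjusted p = 0.00205), FARSB (-0.58, adjusted p = 4.14e-04), GARS (-0.31, adjusted p = 0.00516) and KARS (-0.24, adjusted p = 0.0324), which load valine, phenylalanine, glycine and lysine. The median of the 20 was -0.11. The mitochondrial tryptophanyl-tRNA synthetase WARS2 was not called in the knockdown (-0.07, adjusted p = 0.648), and EIF2AK4 (GCN2), the kinase that senses uncharged tRNA, fell by 0.27 (adjusted p = 0.0161).

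**Figure D4:**
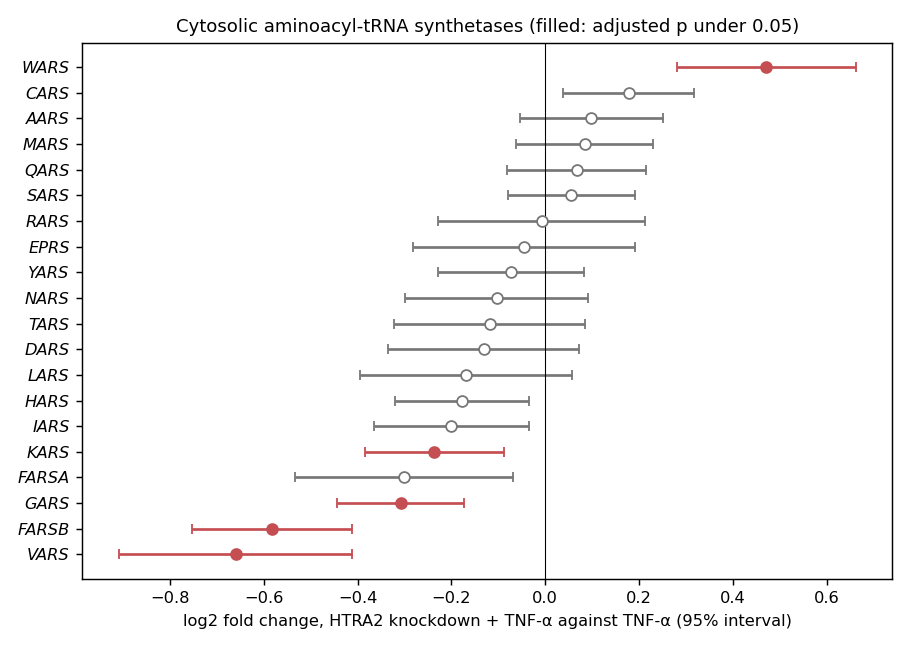
Log2 fold change of the 20 cytosolic aminoacyl-tRNA synthetases (vertical axis, ordered by value) in the knockdown against TNF-α, with 95% intervals; filled symbols passed an adjusted p of 0.05. WARS, at 0.47, is the 1 filled symbol above 0, and VARS, FARSB, GARS and KARS are the filled symbols below 0.

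IDO1 and WARS are known targets of interferon-γ, so genes of that axis were listed beside them, with earlier results of these data known. Of 14 listed genes 12 were tested, and IFNG itself and CXCL9 had 0 reads in every library. With TNF-α 7 of the 12 were higher than in medium, beside 3.22% of all genes tested. Among the 7 were GBP1 (log2 fold change 1.75, limma, adjusted p = 9.82e-06), IFNGR2 (0.95, adjusted p = 9.82e-06), IFNGR1 (0.69, adjusted p = 1.01e-04) and IRF1 (0.56, adjusted p = 6.16e-04). Bufotenidine changed 0 of the 12. In the knockdown 11 of the 12 were higher than with TNF-α and 10 higher than with Bufotenidine, beside 9.35% and 7.85% of all genes tested. Those higher than with TNF-α included GBP1 (1.75, limma, adjusted p = 1.42e-05), GBP2 (2.30, adjusted p = 1.97e-05) and IFNGR1 (0.76, adjusted p = 3.67e-05). CXCL11, 1 of the 12, passed the filter only through its knockdown libraries, and without it 10 of 11 were higher than with TNF-α and 9 of 11 higher than with Bufotenidine. The median of the 12 was 0.66 with TNF-α, 0.16 with Bufotenidine and 0.95 in the knockdown, beside -0.0020, 0.00 and -0.0034 over all genes.

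Over the 12 libraries, the genes whose centred log2 values lay nearest to those of each called member were taken from 11184 genes with a mean of at least 1 FPKM. Nearest to KYNU were CD47 (root mean square difference 0.119), OPTN (0.121) and ITGB8 (0.133). CD47, a surface ligand, had group means of 6.99 FPKM in medium, 15.0 with TNF-α, 12.8 with Bufotenidine and 25.0 in the knockdown. Nearest to WARS were VCL (0.0536), STK10 (0.066) and ZFAND3 (0.0691), and nearest to QPRT were TMC4 (0.113), CERCAM (0.121) and CALCOCO1 (0.123).

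IDO1, KYNU and IL4I1 are also expressed by myeloid cells, TDO2, AFMID, KYNU and QPRT by hepatocytes, so markers of other cell types were examined. Of 8 myeloid markers 2 were tested, and both CD14 (log2 fold change 1.41, limma, adjusted p = 0.0163) and CSF1R (1.28, adjusted p = 0.00127) were higher in the knockdown than with TNF-α. Over all genes tested, 9.35% were called higher in that comparison. CD14 had 20 to 50 reads per library in the knockdown and 4 to 10 with TNF-α. It overlapped medium (14 to 33 reads) and Bufotenidine (12 to 20 reads). Against Bufotenidine 1 of the 2 was called higher, beside 7.85% of all genes. The summed FPKM of the 8 was 0.615 to 0.871 in medium, 0.339 to 0.477 with TNF-α, 0.667 to 0.735 with Bufotenidine and 0.993 to 1.57 in the knockdown, and PTPRC, which defines leukocytes, had at most 4 reads in any library. Of 8 fibroblast markers 1 was tested, COL1A1, which was also higher in the knockdown (1.23, limma, adjusted p = 1.26e-04). The sum of the 8 was at most 1.46 FPKM without the knockdown and 2.63 to 3.24 FPKM with it, nearly all of it COL1A1 (2.60 to 3.21 FPKM in the knockdown). COL1A2 and COL3A1 had at most 2 and 6 reads in any knockdown library, and THY1, DCN and LUM had at most 3 reads. Of 6 hepatocyte markers ALB and CYP3A4 had at most 3 reads, and the sum of the 6 was 6.99 to 7.93 FPKM in medium and 11.7 to 17.1 FPKM in the groups with TNF-α, nearly all of it SERPINA1. The part of these markers in the results was not tested, and in bulk RNA a change in the number of cells of a type and a change in RNA per cell cannot be told apart.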

How the data were processed

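NCM460 libraries were made from poly(A)-selected RNA. The submitters' processing notes name CASAVA 1.8, HISAT2 2.0.4, HTSeq 0.9.1 and hg38. The authors deposited their values as FPKM, 1 for each gene in each library, and the strand setting of the counting is not given in the sources used here. Of 58735 gene identifiers 99.9% had the position given in GENCODE 29. Each FPKM was multiplied by gene length and divided by the value of 1 read, which was fitted per library from its low values. This gave whole reads (within 0.1) for 100% of the values up to 1000 reads. The deposited FPKM already had equal median-of-ratios factors in all libraries.

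With R 4.3.3 and limma 3.58.1, log2(FPKM + 0.1) of 18079 genes with a mean of at least 0.1 FPKM was fitted with 1 mean per group over 12 libraries (eBayes with trend, 8 residual degrees of freedom). Contrasts were two-sided with Benjamini-Hochberg adjustment, and called genes had an adjusted p under 0.05. IDO1 and TDO2 came from a fit of 31951 genes with FPKM above 0 in any library. The floor was 3 reads per library, for counting error only.

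Named genes were the 7 members, HTRA2, up to 4 called genes per list and contrast with the smallest adjusted p, and the 3 genes most like each called member with a mean of at least 1 FPKM. One gene that this rule names is not reported here. WARS2, genes named as not called in a contrast, and cell type markers were added with their values seen. The members and lists were chosen with earlier results of these data known. The ISRE was first searched with 1 more A at its end, in 3.02% of windows, and then shortened to 9 letters after the matches were seen, and the WARS match has both forms. Alternatives were pseudocounts of 1 and 0.01, no filter or a mean of at least 1 FPKM, median-of-ratios and quantile scaling, fits of 2 groups, eBayes without trend, a replicate block, each library left out, and voom on recovered reads, which was chosen after seeing the data. Same-numbered libraries did not deviate together (r from -0.104 to 0.0382 over 18 pairs).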

Additional observations from a re-analysis of the deposited data

How the results depend on the processing

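KYNU was called for TNF-α against medium, and QPRT, KYNU and WARS for the knockdown against TNF-α, under every alternative run in which they were tested. Among these, median-of-ratios scaling could not differ from the main fit, because the deposited FPKM already had equal factors. For Bufotenidine against TNF-α the count of called members was 0, but 1 (QPRT) with a mean of at least 1 FPKM, with only both groups fitted and with voom on the recovered reads. For the knockdown against Bufotenidine it was 2, but 3 with WARS added at a mean of at least 1 FPKM, with quantile normalization, with voom and without knockdown library 2, and 3 with IDO1 added without a filter. With the replicate number as a block the counts were 1, 0, 3 and 2 in the 4 comparisons, as without it, while those over all genes were 600, 1, 2660 and 2062, against 742, 7, 3152 and 2762. The block changed no call of a member, and nothing shows that the numbers pair the libraries. For Bufotenidine against TNF-α, 236 of all genes were called with voom, 911 with only both groups fitted and 127 of 11185 with a mean of at least 1 FPKM, against 7.

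Signs that turned were those of low or unmoved genes, none of them called. With a pseudocount of 0.01 the log2 fold change for TNF-α against medium became -0.48 for IDO1 and -0.0145 for IL4I1, and that for Bufotenidine against TNF-α became 0.17 for IDO1 and 0.10 for TDO2. With quantile normalization IDO1 became -0.023 and IL4I1 -0.12 for TNF-α against medium. With voom IDO1 became -1.04 for TNF-α against medium, and IDO1 0.40, TDO2 0.34 and AFMID -0.0354 for Bufotenidine against TNF-α. With each library left out in turn, TNF-α against medium ranged from -0.25 to 0.16 for IDO1 and from -0.27 to 0.28 for IL4I1, and Bufotenidine against TNF-α from -0.18 to 0.22 for IDO1, -0.0602 to 0.0971 for TDO2 and -0.0603 to 0.0469 for AFMID. IDO1 in the knockdown lost its call against Bufotenidine with a pseudocount of 0.01 (3.22, adjusted p = 0.0629). The cause of these shifts was not tested. A depth of 31008429 to 37624399 reads left IDO1, TDO2 and IL4I1 at 0 to 31 reads per library, which limits what can be said of them.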
